A study of Mus musculus with 2 samples.

Results

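The genes described here encode the translation initiation factors eIF1 to eIF6, their regulators, the kinases that phosphorylate eIF2α and the regulatory subunits that direct its dephosphorylation. They were chosen by symbol alone: every probe set annotated to a single gene whose symbol starts with Eif and a digit, together with *Ppp1r15a* and *Ppp1r15b*. This rule gave 136 of 45037 probe sets and 49 of 18193 named genes. Their transcripts were measured at E17.5 in the femoral growth plate of mice lacking TRIC-B, an intracellular cation channel of the endoplasmic reticulum (ER). One array was hybridized with the section that holds columnar and hypertrophic chondrocytes (columnar/hypertrophic section) and 1 array with the section rich in round chondrocytes (round section), which is the only array specimen that the study's methods describe. Both carried the label C57BL/6J, 129Sv, Tric-b-KO, each RNA pooled 3 preparations, and no other agent or allele is named. Arrays of wild-type mice were not analysed here, and zones of the knockout growth plate are compared and not genotypes. A single array per zone allows no replicate check, and no p-value is given.

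Initiation brings the initiator methionyl-tRNA, the small ribosomal subunit and the capped end of an mRNA together. The GTP-bound factor eIF2 carries the initiator tRNA, eIF2B recharges eIF2 with GTP, and eIF3 holds the small subunit to the mRNA through the cap-binding complex eIF4F. Phosphorylation of the α subunit of eIF2 turns eIF2 into an inhibitor of eIF2B, which lowers general translation while letting mRNAs such as that of ATF4 be translated. PERK, one of the eIF2α kinases, senses unfolded protein in the ER, and chondrocytes load the ER heavily because they secrete large amounts of collagen. The study followed eIF2α signalling in the knockout cartilage, and the question put to the arrays here is whether the transcripts of this machinery differed between the zones.

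A signal counted as detected above a floor of 65.9, under which 40% of the values on the arrays lay. The zone labels were borne out by marker genes. *Col10a1*, whose collagen marks hypertrophic cartilage, had a signal of 25421 in the columnar/hypertrophic section and 55.2, under the floor, in the round section, and *Prg4*, a gene of the joint surface, had signals of 94.1 in the columnar/hypertrophic section and 5260 in the round section. All 9 cartilage matrix genes examined were detected on both arrays. *Tmem38b*, the targeted gene, had signals on its 4 probe sets of 43.1 to 304 in the columnar/hypertrophic section and 69.4 to 323 in the round section. The position of these probes relative to the deleted part is not known here, so these signals do not check the genotype.

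Most of the initiation machinery had a slightly higher signal in the columnar/hypertrophic section. Of the 49 member genes, 48 lay above the floor on both arrays and 1, *Eif4a3*, lay under it on both. Each gene was read from its brightest probe set. The signal was higher in the columnar/hypertrophic section for 36 of the 48 compared genes, or 75.0%, where the share over all 12714 compared genes was 46.9%. The median log2 difference, columnar/hypertrophic minus round, was 0.26 over the members and -0.04 over all compared genes. A size rule of 1.5-fold was met on the columnar/hypertrophic side by 8 members, or 16.7%, against 10.4% of all genes, and on the round side by 1 member, or 2.08%, against 15.2% of all genes. The rule of 2-fold was met on the columnar/hypertrophic side by 1 member, where 4.26% of all genes met it, and on the round side by 0, where 6.17% did. Counting probe sets instead of genes, 85 of 126 compared member probe sets, or 67.5%, were higher in the columnar/hypertrophic section, against 42.4% of all probe sets. Past 1.5-fold were 18 on the columnar/hypertrophic side, or 14.3%, against 9.41% of all probe sets, and 8 on the round side, or 6.35%, against 17.4%. Past 2-fold were 2 on each side, or 1.59%, against 3.58% of all probe sets on the columnar/hypertrophic side and 6.24% on the round side.

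The size of this shift depended on the scaling of the arrays. Bright genes as a whole lay above 0 in the deposited values, as the trend line of the plot of difference against signal shows, and many initiation factor genes are bright. After lowess centring, which removes that trend, the member median was 0.17 and that of all genes 0.01, with 32 of 48 members higher in the columnar/hypertrophic section where 50.7% of all genes were. After quantile normalization the medians were 0.16 over the members and 0.03 over all genes, again with 32 of 48 members higher, where 52.4% of all genes were. Under both, 5 members (*Eif1ad*, *Eif2b3*, *Eif3b*, *Eif4ebp1* and *Eif5a2*) met the 1.5-fold rule on the columnar/hypertrophic side, or 5 of 48, where 12.8% of all genes met it after quantile normalization and 12.2% after lowess centring. The count of 1.5-fold members was then not above the share of all genes, while the member median stayed above that of all genes.

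**Figure D1:**
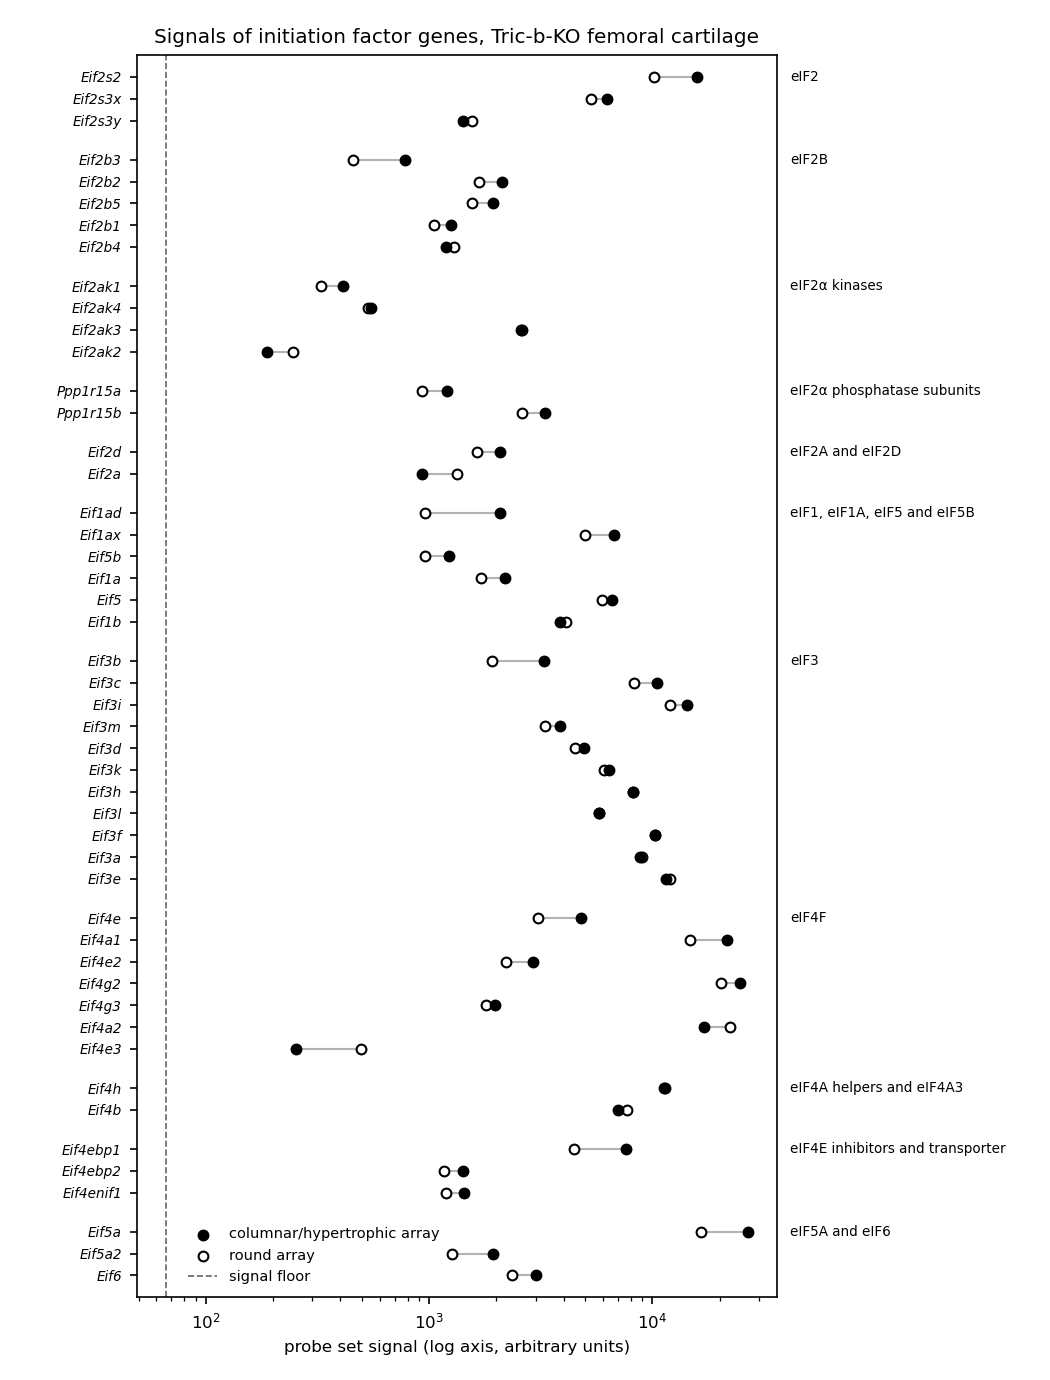
Signal (log axis, arbitrary units) of the 48 compared initiation factor genes in the columnar/hypertrophic section (filled circles) and the round section (open circles) of knockout growth plates, grouped by factor complex with a single array for each zone. The dashed line is the floor of 65.9. Most pairs lie close together, and the widest gaps are those of *Eif1ad* (2077 columnar/hypertrophic, 959 round) and *Eif4e3* (253 columnar/hypertrophic, 496 round).

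**Figure D2:**
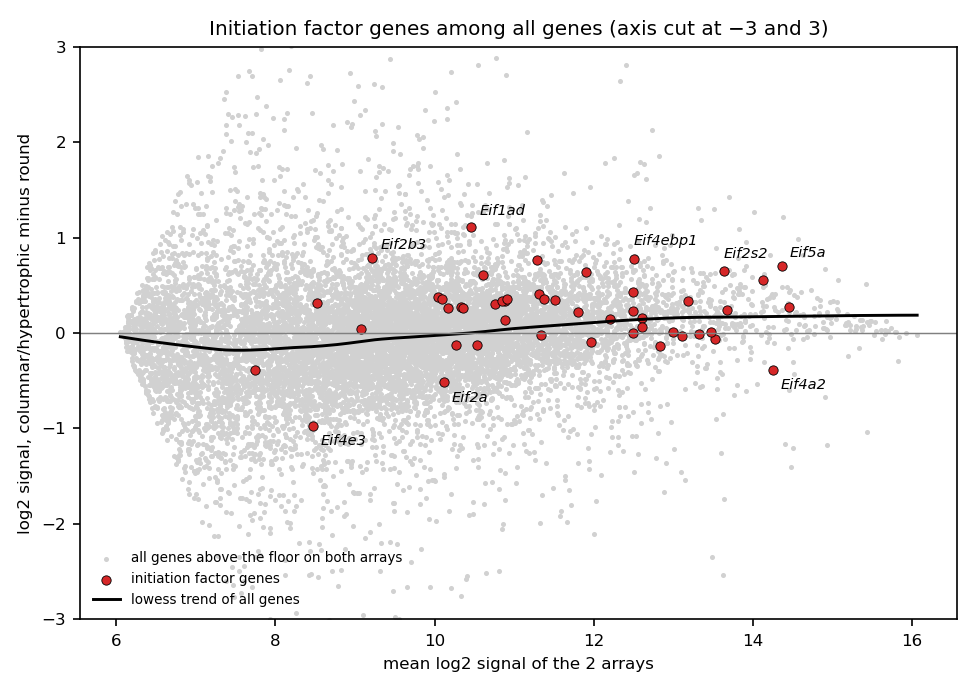
Log2 difference, columnar/hypertrophic minus round, against the mean log2 signal for all 11189 genes above the floor on both arrays (grey), the initiation factor genes (red) and the lowess trend of all genes (line). Of the grey genes, 60 lie beyond the limits of the vertical axis, and no initiation factor gene does.

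The subunits of eIF2 did not differ alike. *Eif2s2*, encoding the β subunit, had signals of 15925 in the columnar/hypertrophic section and 10140 in the round section, a 1.57-fold higher level. All 6 of its probe sets were higher in the columnar/hypertrophic section and 4 of them by at least 1.5-fold, with log2 differences from 0.05 to 0.95. The brightest was under 1.5-fold after quantile normalization (0.50) and lowess centring (0.49), and so was the mean over probe sets (0.52). *Eif2s3x*, encoding the GTP-binding γ subunit from the X chromosome, had signals of 6273 and 5327 in the columnar/hypertrophic and round sections, a log2 difference of 0.24, and all 3 of its probe sets lay between 0.23 and 0.42. Its Y-linked copy *Eif2s3y* had signals of 1423 in the columnar/hypertrophic section and 1554 in the round section, a log2 difference of -0.13. The α subunit gene *Eif2s1*, which carries the phosphorylation site, had no singly annotated probe set and was not analysed here.

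*Eif2s3y* also reads the sex of the embryos mixed into each RNA. The other Y-linked genes *Kdm5d* and *Uty* had log2 differences of -0.24 and -0.30, on the same side as *Eif2s3y*. *Xist*, the transcript of the inactive X chromosome, had signals on its brightest probe set of 55.9, under the floor, in the columnar/hypertrophic section and 87.6 in the round section. Its other probe sets were under the floor on both arrays. Male RNA was thus present on both arrays, and the part of embryo sex in the difference of *Eif2s3x* was not tested.

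Of the 5 subunits of eIF2B, the guanine nucleotide exchange factor of eIF2, 4 had a higher signal in the columnar/hypertrophic section. The share was 75.0% over all compared members and 46.9% over all compared genes. *Eif2b3*, encoding the γ subunit of its catalytic core, had signals of 781 in the columnar/hypertrophic section and 454 in the round section. This 1.72-fold difference rests on 1 probe set. *Eif2b5*, encoding the catalytic ε subunit, had signals of 1932 in the columnar/hypertrophic section and 1563 in the round section. Among the regulatory subunits, *Eif2b2* (β) had signals of 2114 in the columnar/hypertrophic section and 1679 in the round section, and its 3 probe sets all had positive log2 differences, of 0.10 to 0.33. *Eif2b1* (α) had signals of 1255 in the columnar/hypertrophic section and 1047 in the round section. *Eif2b4* (δ) lay on the other side at 1184 in the columnar/hypertrophic section and 1288 in the round section. Probe sets that read one gene scattered around each other with a pooled SD of 0.34 in log2 units over 5446 genes. As deposited *Eif2b3*, at 0.78, was the one eIF2B subunit beyond that scatter, and under median centring *Eif2b2* (0.42), *Eif2b5* (0.40) and *Eif2b1* (0.35) were beyond it too. The scatter lies between probe sets, which can read different parts of a gene, and holds no variation between animals. It therefore does not show which of these differences would recur.

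All 4 eIF2α kinase genes were detected in both zones, and none differed by 1.5-fold on its brightest probe set. Over all genes 10.4% were past 1.5-fold on the columnar/hypertrophic side and 15.2% on the round side. *Eif2ak3*, encoding PERK, had signals of 2568 in the columnar/hypertrophic section and 2605 in the round section, a log2 difference of -0.02. This value rests on 1 probe set, since its other 2 lay under the floor on both arrays, and it turned to 0.07 under median centring. *Eif2ak4*, encoding the amino acid sensor GCN2, had signals of 549 in the columnar/hypertrophic section and 534 in the round section, and its second probe set gave a log2 difference of -0.21. *Eif2ak2*, encoding the double-stranded RNA sensor PKR, had signals of 187 in the columnar/hypertrophic section and 244 in the round section, and its 3 probe sets ranged from -0.39 to 0.02 in the log2 difference. Its deposited difference of -0.39 shrank to -0.19 after quantile normalization and -0.18 after lowess centring.

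*Eif2ak1*, encoding the heme-regulated kinase HRI, gave the least settled value of the kinases. Its brightest probe set had signals of 410 in the columnar/hypertrophic section and 329 in the round section, a log2 difference of 0.32, with 0.47 under quantile normalization and 0.48 under lowess centring. A dimmer probe set had signals of 243 in the columnar/hypertrophic section and 115 in the round section, a difference of 1.07, and another had signals of 107 in the columnar/hypertrophic section and 149 in the round section, a difference of -0.48. HRI is best known from red cell precursors. Of 5 measured erythroid genes, 3 were compared, all within 1.5-fold between the arrays as deposited. Of all genes, 10.4% were past that size on the columnar/hypertrophic side and 15.2% on the round side. The summed signal of the 3 was 229 in the columnar/hypertrophic section and 240 in the round section. Each of the 3 was close to the floor, while *Hba-a1* and *Slc4a1* lay under it on both arrays. PKR is induced by interferon, and of 10 measured interferon-stimulated genes 6 were compared. As deposited 0 of them differed by 1.5-fold, where 10.4% of all genes were past it on the columnar/hypertrophic side and 15.2% on the round side, while *Stat2* was past it after quantile normalization (0.64) and lowess centring (0.63). The genes not compared, *Ifit1*, *Ifit2*, *Ifit3* and *Oasl2*, were under the floor on both arrays.

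Both regulatory subunits that bring protein phosphatase 1 to eIF2α were higher in the columnar/hypertrophic section, by less than 1.5-fold on the brightest probe set. *Ppp1r15a*, encoding the stress-inducible GADD34, had a log2 difference of 0.37 on its single probe set, and this stood between 0.37 and 0.46 under the scalings tried. *Ppp1r15b*, encoding the constitutive CReP, had a difference of 0.34 on its brightest probe set, at 3301 in the columnar/hypertrophic section and 2603 in the round section. Its second probe set, close to the floor at 106 in the columnar/hypertrophic section and 67.5 in the round section, gave 0.65. So the phosphatase subunits had small positive differences under every scaling tried, while the kinase median was 0.01 with 2 of 4 genes on each side as deposited, and 0.10 with 3 of 4 on the columnar/hypertrophic side under median centring.

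The partners of these enzymes were read from a list of 10 genes, of which 9 were measured. All 9 were compared, and their median log2 difference was 0.19, with 5 genes on the columnar/hypertrophic side and 4 on the round side. Past 1.5-fold were 0 on either side, against 10.4% of all genes on the columnar/hypertrophic side and 15.2% on the round side. *Gcn1*, encoding the activator of GCN2, had signals of 703 in the columnar/hypertrophic section and 557 in the round section, and *Impact*, encoding its inhibitor, had signals of 2010 in the columnar/hypertrophic section and 1768 in the round section. Dimmer probe sets of both lay on the round side, down to -0.70 for *Gcn1* and -0.62 for *Impact*. *Dnajc3*, encoding the PERK and PKR inhibitor P58IPK, had signals of 3152 in the columnar/hypertrophic section and 2659 in the round section on its brightest probe set, and its 5 probe sets ranged from -0.27 to 0.25. The genes on the round side were *Ppp1cc* (-0.23), *Nck1* (-0.11), *Ppp1cb* (-0.04) and *Prkra* (-0.02). Among the catalytic subunit genes of protein phosphatase 1, *Ppp1ca* (0.23) thus lay on the opposite side to *Ppp1cb* and *Ppp1cc*. Downstream of eIF2α, all 7 genes of the ATF4 and CHOP arm had a higher signal in the columnar/hypertrophic section, where 46.9% of all genes did, with a median of 0.50. *Atf3* and *Asns* were past 1.5-fold, where 10.4% of all genes were, and *Asns* was not after quantile normalization (0.52) or lowess centring (0.53). This list was already known to lie on that side when it was chosen and is given for context.

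The factors that can deliver initiator tRNA outside eIF2 differed in opposite directions on their brightest probe sets. *Eif2a*, encoding eIF2A, a single-chain factor unrelated to eIF2α, had signals of 929 in the columnar/hypertrophic section and 1330 in the round section on its brightest probe set. A second probe set had signals of 314 in the columnar/hypertrophic section and 568 in the round section, so both were higher in the round section, by 1.43-fold and 1.81-fold. *Eif2d*, encoding eIF2D, had signals of 2073 in the columnar/hypertrophic section and 1642 in the round section on its brightest probe set. Its 4 probe sets above the floor on both arrays ranged from -1.03 to 0.62 in the log2 difference, the widest spread of any member. The direction of *Eif2d* therefore depends on the probe set, and that of *Eif2a* was the same on both of its detected probe sets.

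Among the factors of start codon scanning and subunit joining, *Eif1ad* stood apart. It encodes a protein with an eIF1A-like domain, and its signals of 2077 in the columnar/hypertrophic section and 959 in the round section made it the only member to reach 2-fold, at 2.17-fold. Its second probe set had signals of 589 in the columnar/hypertrophic section and 544 in the round section, a 1.08-fold difference, so the probe sets disagree on its size. *Eif1ax*, one of the genes of eIF1A itself, had signals of 6709 in the columnar/hypertrophic section and 4967 in the round section on its brightest probe set. Its other 2 probe sets were higher in the round section, with log2 differences of -0.47 and -0.63. *Eif1a*, the other eIF1A gene, differed by 0.36 and 0.31 on its 2 probe sets.

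*Eif5*, encoding the GTPase-activating partner of eIF2, was higher in the columnar/hypertrophic section on 4 of 5 probe sets, with log2 differences from -0.19 to 0.50. *Eif5b*, encoding the GTPase that joins the large subunit, had signals of 1232 in the columnar/hypertrophic section and 961 in the round section. *Eif1b*, a close relative of the start codon selection factor eIF1, had signals of 3857 in the columnar/hypertrophic section and 4118 in the round section. The median of these 6 genes was 0.36, and 5 of them had a higher signal in the columnar/hypertrophic section, where 75.0% of all compared members and 46.9% of all genes did. *Eif1* had no singly annotated probe set here.

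The 11 measured subunit genes of eIF3, the scaffold of the initiation complex, were bright and nearly equal between the zones. *Eif3b* was the exception, with signals of 3253 in the columnar/hypertrophic section and 1919 in the round section, a 1.70-fold difference on 1 probe set. It encodes an RNA-binding core subunit. The next were *Eif3c*, a core subunit gene with log2 differences of 0.33 to 0.50 over 4 probe sets, and *Eif3i*, encoding the partner of eIF3b, whose 2 probe sets gave 0.24 and 0.27. *Eif3m* (0.22), *Eif3d* (0.14), which encodes a subunit that can bind the cap, and *Eif3k* (0.07) followed.

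At the other end, *Eif3e* had signals of 11494 in the columnar/hypertrophic section and 11991 in the round section, a log2 difference of -0.06. *Eif3h*, *Eif3l*, *Eif3f* and *Eif3a* lay between -0.03 and 0.01. The median of the complex was 0.07 as deposited, -0.07 after quantile normalization and -0.08 after lowess centring, so its direction depends on the scaling. The value of *Eif3b* stayed between 0.70 and 0.85. *Eif3g* was not analysed here, and the probe sets shared by *Eif3j1* and *Eif3j2* were left out.

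**Figure D3:**
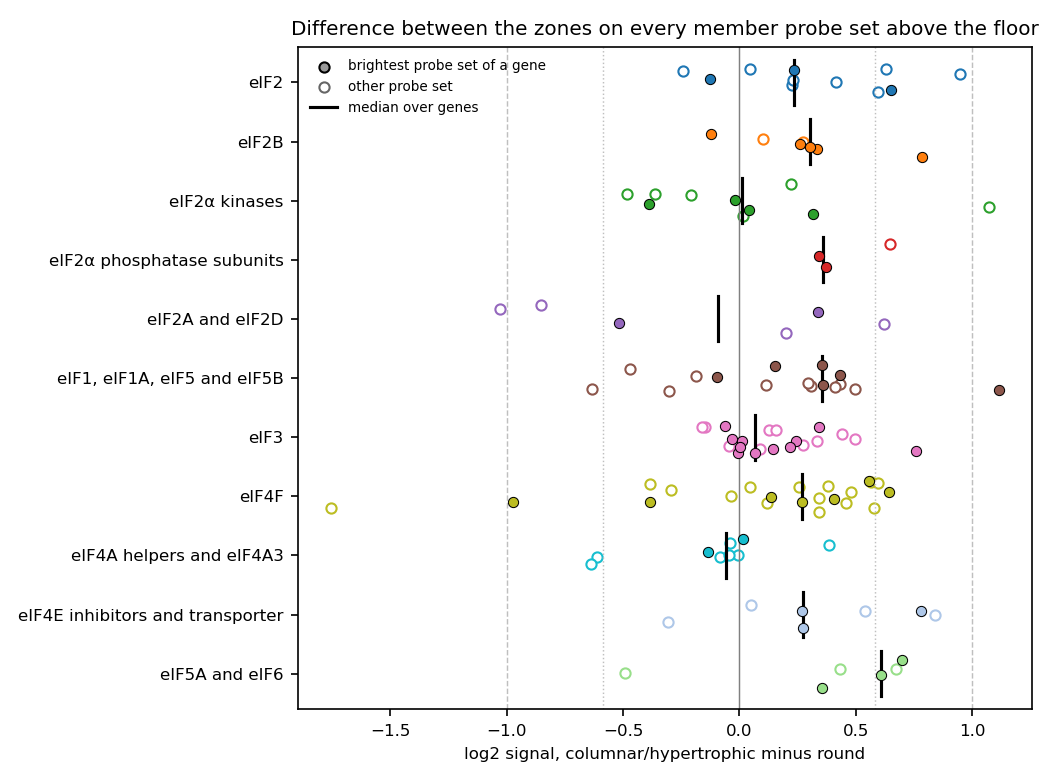
Log2 difference, columnar/hypertrophic minus round, of the 118 member probe sets above the floor on both arrays, by factor complex. Filled circles are the brightest probe set of a gene, open circles its other probe sets, and bars the median over genes, and the dotted and dashed lines mark 1.5-fold and 2-fold. The eIF5A and eIF6 genes have the highest median, 0.61, and the eIF3 genes other than *Eif3b* (0.76) lie between -0.06 and 0.34 on their brightest probe sets.

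The cap-binding complex eIF4F held members on both sides. *Eif4e*, encoding the cap-binding protein, had signals of 4777 in the columnar/hypertrophic section and 3062 in the round section, a 1.56-fold difference. All 4 of its probe sets were higher in the columnar/hypertrophic section, with log2 differences from 0.26 to 0.64. The brightest was under 1.5-fold after quantile normalization (0.55) and lowess centring (0.53), and so was the mean over probe sets (0.47). *Eif4e3*, encoding an alternative cap-binding protein, had signals of 253 in the columnar/hypertrophic section and 496 in the round section on its brightest probe set, and 114 in the columnar/hypertrophic section and 385 in the round section on the other. It was the one member past 1.5-fold on the round side, by 1.96-fold and 3.37-fold on its 2 probe sets. *Eif4e2*, encoding the repressive cap-binding protein 4EHP, had signals of 2933 in the columnar/hypertrophic section and 2212 in the round section, but its 5 probe sets ranged from -0.39 to 0.58.

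The paralogous eIF4A helicases also differed in opposite directions. *Eif4a1* had signals of 21669 in the columnar/hypertrophic section and 14713 in the round section, and its 3 probe sets had log2 differences of 0.48 to 0.57, just under 1.5-fold. *Eif4a2* had signals of 17005 in the columnar/hypertrophic section and 22190 in the round section on its single probe set, a log2 difference of -0.38. Under the other scalings *Eif4a1* ranged from 0.39 to 0.65 and *Eif4a2* from -0.55 to -0.29, so neither turned. Of the scaffold genes, *Eif4g2*, encoding the DAP5 protein that lacks the eIF4E-binding part, had signals of 24597 in the columnar/hypertrophic section and 20398 in the round section, and *Eif4g3* had signals of 1982 in the columnar/hypertrophic section and 1801 in the round section. *Eif4g1* had no singly annotated probe set here.

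Genes higher in the round section need to be read beside the makeup of that section. Of 8 measured genes of perichondrium, tendon and fibroblasts, 7 were compared. Of these, 6 met the 2-fold rule on the round side, where 6.17% of all genes did, the exception being *Lum*. The summed signal of the 7 was 33201 in the columnar/hypertrophic section and 84115 in the round section. *Scx*, a tendon marker, was under the floor on both arrays on one probe set, and on the other it had 6.03 in the columnar/hypertrophic section, under the floor, and 79.2 in the round section. The part of such cells in the higher round signals of *Eif4e3*, *Eif2a* and *Eif4a2* was not tested, and in bulk tissue fewer cells of a type and less RNA per cell cannot be told apart.

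On their brightest probe sets the helicase helpers were nearly equal between the zones. *Eif4h* had signals of 11403 in the columnar/hypertrophic section and 11282 in the round section, and *Eif4b* had signals of 6983 in the columnar/hypertrophic section and 7659 in the round section. After quantile normalization and lowess centring both lay on the round side, *Eif4h* at -0.15 and -0.14 and *Eif4b* at -0.29 under each. Of the 6 probe sets of *Eif4h*, 5 lay on the round side, and 2 dim ones were past 1.5-fold there at -0.61 and -0.64. The third probe set of *Eif4b* gave 0.38, against -0.13 and -0.08 on the brighter ones. *Eif4a3*, encoding the helicase of the exon junction complex, was listed at 3.31 in the columnar/hypertrophic section and 2.72 in the round section, both under the floor. A second probe set of *Eif4a3* is also annotated to another gene and was left out, so the low value does not show that the gene is silent.

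On their brightest probe sets, the inhibitors of eIF4E had a higher signal in the columnar/hypertrophic section, as did *Eif4e*. *Eif4ebp1*, encoding the binding protein that mTORC1 phosphorylates to release eIF4E, had signals of 7617 in the columnar/hypertrophic section and 4439 in the round section, a 1.72-fold difference. Its second bright probe set had signals of 5654 in the columnar/hypertrophic section and 3154 in the round section, a 1.79-fold difference, whereas a dim one had signals of 367 in the columnar/hypertrophic section and 354 in the round section. The mean over its probe sets was under 1.5-fold, at 0.56. *Eif4ebp1* is also known as a target of ATF4. *Eif4ebp2* had signals of 1413 in the columnar/hypertrophic section and 1170 in the round section, with its 3 probe sets above the floor ranging from -0.31 to 0.54. *Eif4enif1*, encoding the transporter that carries eIF4E into the nucleus, had signals of 1435 in the columnar/hypertrophic section and 1192 in the round section. *Eif4ebp3* shares its only probe set with *Ankhd1* and was left out.

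Of the mTORC1 and eIF4E signalling genes, 15 of 16 listed were measured. Of these, 0 met the 1.5-fold rule on the columnar/hypertrophic side, where 10.4% of all genes did. On the round side 1 met it, where 15.2% did. That one was *Tsc1*, with signals of 665 in the columnar/hypertrophic section and 1005 in the round section. Its log2 difference of -0.60 was under 1.5-fold after quantile normalization (-0.54) and lowess centring (-0.53), and its dimmer probe sets gave -0.11 and 0.22. *Tsc2*, whose product forms the brake on mTORC1 with that of *Tsc1*, had signals of 491 in the columnar/hypertrophic section and 707 in the round section. Other listed genes whose products restrain mTORC1 lay on the columnar/hypertrophic side on their brightest probe sets. These were *Sesn2* (0.38), *Akt1s1* (0.29), *Deptor* (0.23) and *Ddit4* (0.23), and the highest gene of the list was *Larp1* (0.48). *Mknk1*, encoding a kinase that phosphorylates eIF4E, had signals of 906 in the columnar/hypertrophic section and 1294 in the round section, and *Pdcd4*, encoding an inhibitor of eIF4A, had signals of 3927 in the columnar/hypertrophic section and 4884 in the round section. *Mtor* itself had signals of 1066 in the columnar/hypertrophic section and 820 in the round section on its brightest probe set, whereas its other 2 gave -0.54 and, with the columnar/hypertrophic signal under the floor, -0.53. The list median was 0.04, with 8 genes on the columnar/hypertrophic side and 7 on the round side.

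Both eIF5A genes had a higher signal in the columnar/hypertrophic section on each of their probe sets. *Eif5a*, which encodes a factor of elongation and termination despite its name, had signals of 26787 in the columnar/hypertrophic section and 16509 in the round section on one probe set, and 9310 in the columnar/hypertrophic section and 5830 in the round section on the other, differences of 1.62-fold and 1.60-fold. *Eif5a2*, its paralog, had signals of 1928 in the columnar/hypertrophic section and 1265 in the round section, a 1.52-fold difference, and its second probe set gave a log2 difference of 0.43. *Eif6*, encoding the factor that keeps free large subunits apart from small ones, had signals of 3003 in the columnar/hypertrophic section and 2349 in the round section, although a dim probe set gave -0.49. *Eif5a* was under 1.5-fold after quantile normalization (0.58) and lowess centring (0.53), where *Eif5a2* stayed past it at 0.61 and 0.60, and the mean over probe sets of *Eif5a2* was under it at 0.52. The suffixes of both *Eif5a* probe sets mark possible cross-hybridization. Without such probe sets *Eif5a* was not read, and the median of *Eif5a2* and *Eif6* was 0.48.

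eIF5A works only once a lysine has been turned into hypusine, by deoxyhypusine synthase and then deoxyhypusine hydroxylase. Both enzymes were on a list of 10 poly(A)-binding, recycling and hypusine partners, and both had a higher signal in the columnar/hypertrophic section on the brightest probe set. *Dhps* had signals of 562 in the columnar/hypertrophic section and 360 in the round section, a log2 difference of 0.64, and *Dohh* had signals of 1226 in the columnar/hypertrophic section and 806 in the round section, a difference of 0.61. The second probe set gave 0.39 for *Dhps*, and for *Dohh* it lay on the opposite side at 69.7 in the columnar/hypertrophic section and 131 in the round section, a difference of -0.91. With *Mcts2* they made 3 of 10 genes past 1.5-fold on the columnar/hypertrophic side, where 10.4% of all genes were, and 0 on the round side. The median of the list was 0.22.

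Most factors of the later steps lay on the same side. Of 11 measured elongation, termination and recycling genes, 9 had a higher signal in the columnar/hypertrophic section, against 46.9% of all genes. Past 1.5-fold were 4 on that side and 1, *Gspt2*, on the round side, against 10.4% and 15.2% of all genes. Of these, *Gspt1* (0.57 and 0.55) and *Gspt2* (-0.51 and -0.58) were under 1.5-fold after quantile normalization and lowess centring, and *Etf1* (0.57) after lowess centring. The release factor genes *Etf1* and *Gspt1* had signals of 2596 and 3269 in the columnar/hypertrophic section and 1699 and 2128 in the round section. Dimmer probe sets of *Gspt1* lay on both sides, from -0.29 to 0.56. On the round side was one with signals of 1000 in the columnar/hypertrophic section and 1199 in the round section, a difference of -0.26. *Eef1e1*, encoding a component of the aminoacyl-tRNA synthetase complex, had signals of 3912 in the columnar/hypertrophic section and 1976 in the round section. *Eef1a1*, the main elongation factor gene, had signals of 57625 in the columnar/hypertrophic section and 59446 in the round section, close to the brightest signal of the arrays, 68899. The median of the 11 genes was 0.41 as deposited and 0.32 after lowess centring. Of 6 skeletal muscle genes measured, 3 were compared, and all 3 lay on this side on their brightest probe sets. Of these, *Acta1* and *Tnnt3* were past 2-fold, where 4.26% of all genes were. The summed signal of the 3 was 798 in the columnar/hypertrophic section and 185 in the round section. The third, *Des*, had 97.7 in the columnar/hypertrophic section and 47.3, under the floor, in the round section. Its other probe set lay on the round side, at 28.1, under the floor, in the columnar/hypertrophic section and 139 in the round section. *Myog* and *Myh3* were under the floor on both arrays, as was *Ckm* on its brighter probe set, while its other one had 68.2 in the columnar/hypertrophic section and 16.4, under the floor, in the round section. The part of muscle in the signals higher on the columnar/hypertrophic side was not tested.

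**Figure D4:**
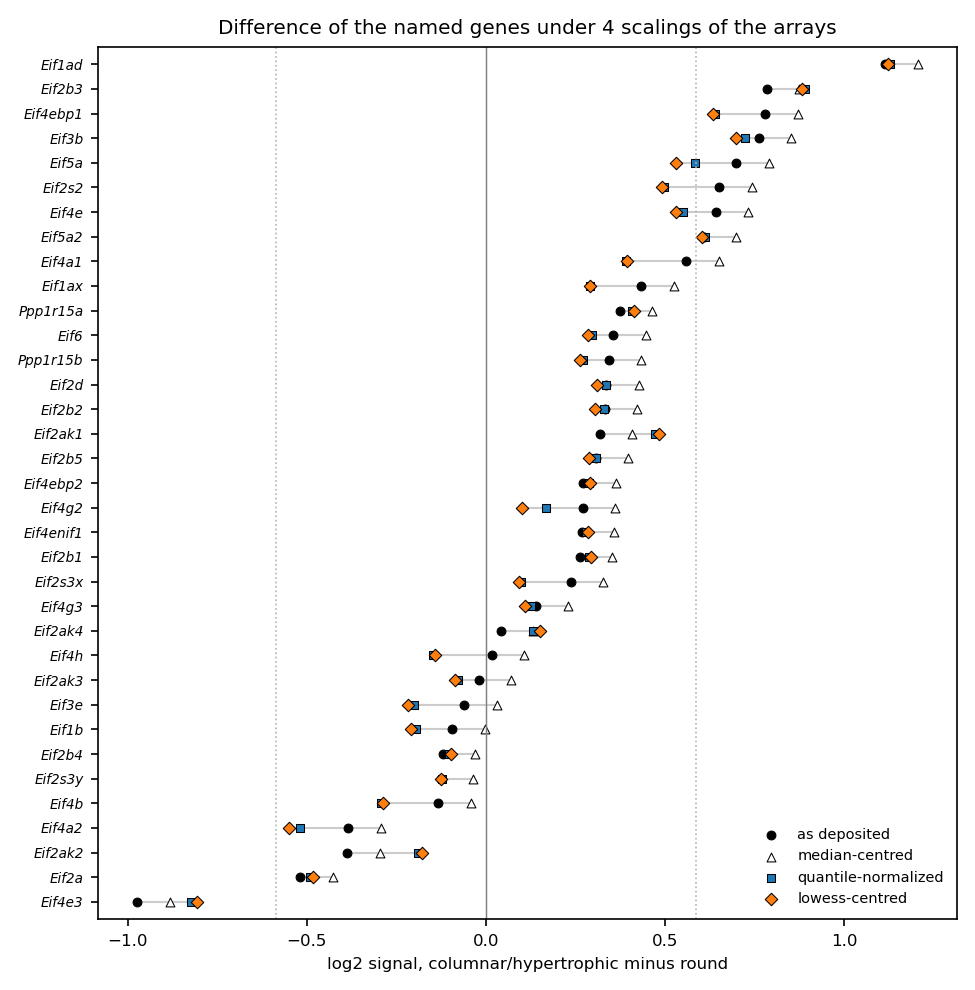
Log2 difference, columnar/hypertrophic minus round, of the 35 named genes as deposited (circles), after median centring (triangles), after quantile normalization (squares) and after lowess centring (diamonds), with dotted lines at 1.5-fold. *Eif1ad* stays above 1 and *Eif4e3* below -0.8 throughout, whereas *Eif2s2*, *Eif4e* and *Eif5a* lie under 1.5-fold after quantile normalization or lowess centring.

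The promoters of the members were examined for 2 motifs chosen after the signals were known: the E-box CACGTG, read by MYC and related factors and long known from the *Eif4e* promoter, and TGATGNAA, the core of the composite element through which ATF4 acts. Windows of 300 bases, 250 before and 50 after each annotated start, came from RefSeq on GRCm38.p6 and were held for 39 of the 49 members. CACGTG reads the same on both strands, TGATGNAA was searched on both, and no member window held both motifs. An E-box stood in at least 1 window of 9 of the 39 member genes, or 23.1%, against 8.09% of all 27025 genes with a window. The ATF4 motif stood in 1 of 39, *Eif2s3x*, or 2.56%, against 4.51% of all genes. No window was held for *Eif4ebp1*, named above as a target of ATF4, or for *Eif2b3*, so neither was searched. The stretches of 30 bases below show each E-box before a start, with the motif in capitals. The first 7 are from genes higher in the columnar/hypertrophic section by a log2 difference of 0.56 to 0.70, and the last 4 from genes between -0.09 and 0.07. Those of *Eif5a*, *Eif4e* and *Eif5a2* overlap the span of the annotated gene, which reaches upstream of the starts they precede, and the others lie outside it.
Eif5a, chr11:69921443-69921472, minus strand: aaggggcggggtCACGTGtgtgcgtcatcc
Eif5a, chr11:69920791-69920820, minus strand: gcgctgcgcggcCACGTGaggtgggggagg
Eif4e, chr3:138527028-138527057, plus strand: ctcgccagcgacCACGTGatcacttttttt
Eif4e, chr3:138527192-138527221, plus strand: ggacacgtccgtCACGTGggcaggagccgg
Eif5a2, chr3:28781123-28781152, plus strand: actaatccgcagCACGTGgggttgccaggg
Eif5a2, chr3:28781148-28781177, plus strand: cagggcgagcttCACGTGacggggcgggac
Eif4a1, chr11:69672595-69672624, minus strand: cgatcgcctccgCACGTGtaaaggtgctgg
Eif3k, chr7:28981915-28981944, minus strand: ctggaaggaaatCACGTGgtagacaaaaaa
Eif4h, chr5:134639488-134639517, minus strand: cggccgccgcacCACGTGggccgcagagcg
Eif3f, chr7:108934335-108934364, plus strand: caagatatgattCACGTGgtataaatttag
Eif1b, chr9:120492570-120492599, plus strand: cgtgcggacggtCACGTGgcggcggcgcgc

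The E-box genes lay on both sides of the signal range. *Eif5a*, *Eif4e*, *Eif5a2* and *Eif4a1* were among the members with the highest differences, while *Eif3k*, *Eif4h*, *Eif3f*, *Eif1b* and *Eif3a*, whose E-box lies 22 bases after the start, were at 0.07 or below. The median log2 difference was 0.07 over the 9 compared genes with an E-box and 0.26 over the 29 without. Counted by size as deposited, 3 of 6 members with a window that were past 1.5-fold on the columnar/hypertrophic side carried an E-box, against 6 of 32 other compared members. The 3 were *Eif5a*, *Eif4e* and *Eif5a2*. Of these, *Eif5a* and *Eif4e* were under 1.5-fold after quantile normalization and lowess centring, so the count depends on the scaling. As deposited the median and the count point in different directions, and neither was tested. In *Eif4e* one E-box began 64 bases and the other 228 bases before the start. *Eif5a2* also had a pair before a single start, at 117 and 142 bases. Those of *Eif5a* lay in windows of different annotated starts, so they do not form a pair before a single start. A match of letters is a description of the window and shows no binding.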

How the data were processed

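Femoral cartilage RNA of 2 sections was hybridized to 1 Affymetrix mouse genome array each. The authors deposited linear signal intensity values. MAS5, which summarises each array on its own, is the tool in the submitters' processing notes (version not given), whereas the study's methods name robust multiarray analysis for heatmaps. The arrays' means trimmed by 2% at each end were 496 (columnar/hypertrophic) and 497 (round), and signals were used as deposited.

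Names came from the platform annotation, with 34945 given 1 symbol, 932 several and 9160 none. Symbols were checked by Entrez identifier, and 0 changed. Signals under the floor were set to it, and a probe set under the floor on both arrays was not compared. Differences were log2 columnar/hypertrophic signal minus log2 round signal, and a gene took its brightest probe set. Genes were counted at 1.5-fold and 2-fold. Members and gene lists were chosen with earlier results of these data known. Named were the eIF2, eIF2B, kinase, phosphatase, eIF4F and eIF4E-inhibitor genes, the highest and lowest of each other complex, every member past 1.5-fold, and those whose probe sets span over 1. Values of further members are given beside them. Levels were not compared between genes, since probe sets differ in brightness for the same amount of RNA. Alternatives were other scalings, floors at the 20th and 60th percentile, or none, averaging the probe sets of a gene, leaving out those whose suffix marks possible cross-hybridization, and counting probe sets. The steps were tested on simulated data. Lowess (fraction 0.3) was run in statsmodels 0.14.6, with pandas 2.3.3, numpy 2.4.6 and Python 3.11.15, and figures in matplotlib 3.10.9.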

Additional observations from a re-analysis of the deposited data

How the results depend on the processing

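No paired analysis was possible because a single array stood for each zone, without any test. The number of arrays limits precision, and the only spread available, 0.34 between probe sets of one gene, holds no variation between animals or preparations. A list median was taken to have moved when it changed by more than this SD divided by the square root of its number of genes, a gene when it changed by more than the SD, and a count when it changed by over 1.5 times. Of 133 such checks of counts and medians 113 stayed and 20 moved, and of 279 checks of single genes 275 stayed and 4 moved. The cause was not tested.

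The members past 1.5-fold on the columnar/hypertrophic side numbered 8 as deposited and 9 after median centring, where 10.4% and 13.2% of all genes met the rule. They numbered 5 after quantile normalization and 5 after lowess centring, where 12.8% and 12.2% of all genes did. With the mean over probe sets they numbered 4, where 9.08% did. Without probe sets marked for possible cross-hybridization they numbered 7 of 46, where 10.4% did. Of 126 member probe sets 18 met it, against 9.41% of all probe sets. Those past 1.5-fold on the round side numbered 1, where 15.2% of all genes were. With the mean they numbered 2 (*Eif2a* and *Eif4e3*), where 14.4% of all genes were, and by probe set 8, where 17.4% of all probe sets were. At 2-fold the columnar/hypertrophic count was 1, against 0 with the mean and 2 by probe set. There 4.26% of all genes and 3.58% of all probe sets were past it as deposited. The round count was 0, against 1 with the mean and 2 by probe set, where 6.17% of all genes and 6.24% of all probe sets were past it as deposited. The member median of 0.26 was 0.35 after median centring, 0.16 after quantile normalization, 0.17 after lowess centring and 0.13 with the mean over probe sets, where the median of all genes was -0.06. With the mean, the medians were 0.20 for the eIF1, eIF1A, eIF5 and eIF5B genes, -0.34 for *Eif2a* and *Eif2d*, and 0.054 for eIF4F, which was 0.11 with lowess centring. The eIF3 median was -0.0705 with quantile normalization and -0.083 with lowess centring. The single genes that moved did so with the mean over probe sets: *Eif1ad* to 0.61, *Eif1ax* to -0.22, *Eif6* to -0.07 and *Eif4e3* to -1.36. The sign of *Eif3k*, *Eif3h*, *Eif3l* and *Eif4h* turned under quantile normalization and lowess centring, and that of *Eif2ak3*, *Eif3f*, *Eif3a* and *Eif3e* under median centring, all from values near 0.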

Other observations

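Probe sets of one gene often disagreed among the initiation factor genes. Where several probe sets of a member were detected on both arrays, in 33 genes, 19 had the same sign on all of them and 14 did not. Among the genes with mixed signs were *Eif1ax*, *Eif2d*, *Eif2ak1*, *Eif4e2* and *Eif6*, and in *Eif1ax*, *Eif4e2* and *Eif6* the dimmer probe sets lay on the round side while the brighter ones lay on the columnar/hypertrophic side. Which transcripts or exons these probe sets read was not tested.

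Probe sets annotated to several genes were kept out of the comparison. The brightest one shared by *Eif3j1* and *Eif3j2* had signals of 4039 in the columnar/hypertrophic section and 3312 in the round section. The one shared by *Eif4a3* and *Gm5576* had signals of 3683 in the columnar/hypertrophic section and 2943 in the round section. The one shared by *Ankhd1* and *Eif4ebp3* had signals of 696 in the columnar/hypertrophic section and 765 in the round section.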
